A study of Mus musculus with 8 samples.

Results

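Knockout mouse embryonic stem cells that received a negative control siPOOL were compared with untreated knockout cells, over 4 of the 8 libraries of the series and all genes. All 4 libraries come from E14 cells, a line derived from a blastocyst of 129/Ola background, and all carry a deletion of the miR-290-295 microRNA cluster. The cells were kept in serum with LIF on gelatin. The untreated group (KO) is 2 libraries, described as biological duplicates, and was prepared and sequenced in a set with 2 wild-type libraries (WT). The control siPOOL group (siNeg) is 2 libraries of cells transfected with 5 nM of the pool by Lipofectamine RNAiMax and harvested after 36 hours. Its set holds 2 further libraries of knockout cells given a siPOOL against Tfap4 (siTfap4). Transfection and library set therefore cannot be told apart in this comparison. The labels do not say whether the knockout cells are 1 clone or several, or whether the untreated cells received the transfection reagent alone.

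A siPOOL is a mixture of many small interfering RNAs, each at a low concentration, and a negative control pool is designed against no transcript of the cell. Double-stranded RNA and lipid carriers can be sensed by cytosolic receptors such as RIG-I, MDA5 and PKR and by endosomal Toll-like receptors, which switch on interferon genes. Embryonic stem cells are known for a weak interferon response. Their state depends on LIF and STAT3 signals and on a network of factors that includes Sox2, Nanog and Klf4, and serum growth factors act on them through ERK and serum response factor.

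The microRNAs missing from both groups are among the most abundant ones of the wild-type cell, and 3 of the 6 mature 3p strands found share a seed. They are shown because both groups lack them, so the comparison is of the pool and the set on a background without this family. The 3 are given with that seed in capitals (bases 2 to 8, sequences from RefSeq, GRCm38.p6, chromosome 7, plus strand).
miR-291a-3p: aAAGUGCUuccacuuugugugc
miR-294-3p: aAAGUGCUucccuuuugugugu
miR-295-3p: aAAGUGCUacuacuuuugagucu
None of the 4 libraries had a count on the 7 cluster entries of the plus strand (3218626 to 3220841), where WT had 88 and 39. Tfap4, the transcription factor targeted in the other siPOOL group, stood at 49.0 and 42.1 CPM (counts scaled to library size with TMM factors) in KO and at 34.4 and 37.4 CPM in siNeg. Its log2 fold change was -0.34 (SE 0.25, adjusted p = 0.646).

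Library totals were 12726123 and 11764868 counts in KO and 11395211 and 10795092 in siNeg. Duplicates differed beyond counting error, with a chi-square per degree of freedom of 11.9 in KO and 39.5 in siNeg. The root mean square log2 distance was 0.533 between the KO duplicates, 0.631 between the siNeg duplicates and 0.644 to 0.743 between a siNeg and a KO library. All 8 embryonic stem cell markers had counts in every library and summed to 3474 and 3492 CPM in KO and 3446 and 3246 CPM in siNeg. Short marker sets of other cells summed to less. Those of primitive endoderm summed to 9.25 and 8.83 against 7.80 and 6.10 CPM. Those of fibroblasts or feeders summed to 11.8 and 22.4 against 13.6 and 11.4 CPM, with Col3a1 and Postn at 0 in all 4. The neuroectoderm set was the highest of them, at 21.7 and 26.2 against 16.02 and 24.9 CPM, mostly from Pax6. These sums depend on the markers chosen. The longer primitive endoderm list described below summed to 635 and 790 against 739 and 609 CPM. The longer fibroblast or feeder list summed to 896 and 1053 against 878 and 607 CPM. In bulk libraries, fewer cells of a type and less RNA per cell cannot be told apart.

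A single gene passed the test. Of 15137 genes tested with edgeR's quasi-likelihood test (Benjamini-Hochberg adjusted p under 0.05), 1 rose and 0 fell, or 0.00661% of the genes. At an unadjusted p under 0.05 there were 1737 genes (11.5%), of which 769 were higher (5.08%) and 968 lower (6.39%) in siNeg. The 2 siNeg libraries lay above both KO libraries for 3104 genes (20.5%) and below both for 3687 (24.4%). The log2 fold change was above 0 for 48.5% of genes and below 0 for 51.5%, with a median of -0.02. DESeq2 called 138 of 13376 genes with an adjusted p (1.03%), 63 higher (0.471%) and 75 lower (0.561%). Leaving out siNeg replicate 1 gave 76 edgeR calls, leaving out KO replicate 1 gave 6, and leaving out the other KO library gave 8.

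The called gene is Gm16433 (ENSMUSG00000043024), a processed pseudogene of chromosome 6 (108563605 to 108565588, minus strand, GRCm38). It stood at 14.5 and 14.8 CPM in KO, at 87.7 and 52.4 CPM in siNeg, at 149 and 138 CPM in siTfap4 and at 20.2 and 24.7 CPM in WT. Counted by itself, the gene was higher in the 4 siPOOL libraries than in the 4 untreated ones. The log2 fold change of siNeg against KO was 2.26 (SE 0.28, adjusted p = 0.0068), and the gene was called in all 15 alternative fits in which it was tested. The last 200 bases of Gm16433 are also found whole in Ddx18, which encodes an RNA helicase of ribosome assembly, so reads from that stretch could be counted for either gene. The last 200 bases of Ddx18 itself are mostly unshared, with 5.29% of their sequence words found in other genes. How many Ddx18 reads lie in the shared stretch was not tested. Ddx18 stood at 171 and 148 CPM in KO and at 173 and 190 CPM in siNeg (log2 fold change 0.18, SE 0.25). The 2 genes together held 186 and 163 CPM in KO and 260 and 243 CPM in siNeg, so the sum was also higher in both siNeg libraries, by less than Gm16433 alone. In siTfap4 Ddx18 stood at 50.7 and 82.1 CPM and in WT at 202 and 201 CPM. The sums there were 199.8 and 219.6 CPM in siTfap4 and 222 and 225 CPM in WT, so siPOOL and untreated libraries were not separated by the sum.

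**Figure D1:**
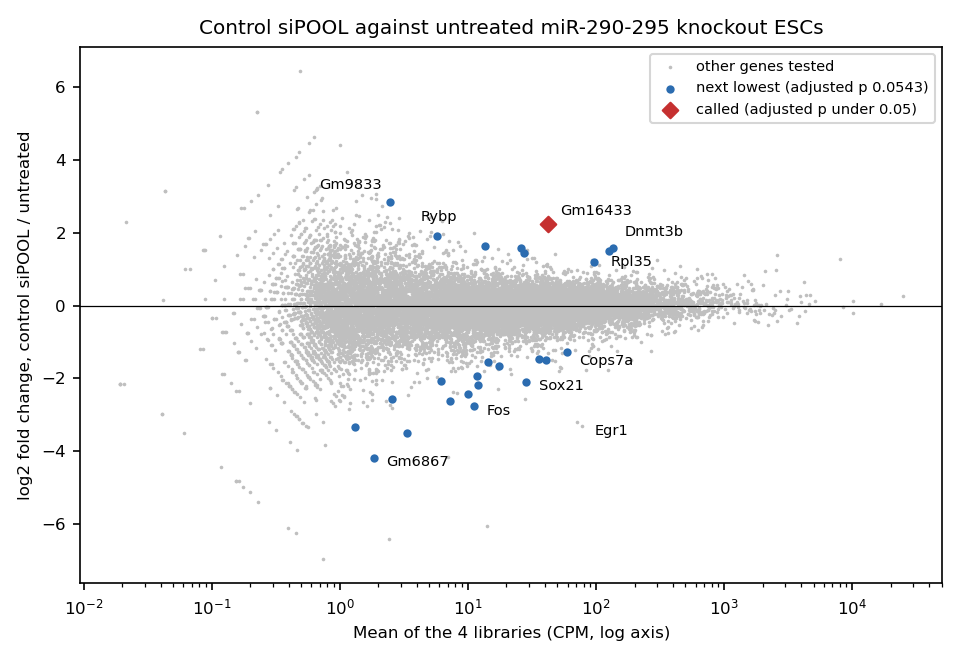
Each point is a gene tested, with its mean over the 4 libraries in CPM (log axis) against the log2 fold change of control siPOOL over untreated knockout cells. Gm16433 at 2.26 is the called gene, and the blue points are the 24 genes whose adjusted p rounds to 0.0543, 8 above and 16 below 0.

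Another 24 genes had an adjusted p that rounds to 0.0543 (9 at 0.05428 and 15 at 0.05434), just outside the threshold, and they are described here because their values were seen to be next in rank. In each of them the siNeg and KO libraries did not overlap, 8 being higher and 16 lower in siNeg. They were 18 protein-coding genes and 6 processed pseudogenes.
Dnmt3b, a de novo DNA methyltransferase, stood at 73.6 and 61.6 CPM in KO and at 254 and 151 CPM in siNeg (log2 fold change 1.58, SE 0.28). Kif20b, a mitotic kinesin, stood at 67.8 and 64.3 against 235 and 139 CPM (1.5, SE 0.27). Morf4l1, a chromodomain protein of histone acetyltransferase complexes, stood at 12.5 and 13.2 against 45.2 and 32.3 CPM (1.6, SE 0.27). In these 3 genes siNeg replicate 1 was the highest of the 4 libraries. Rybp, a Polycomb repressive complex 1 subunit, held 2.22 and 2.56 against 9.08 and 9.10 CPM (1.93, SE 0.37). Crip1, a LIM-domain protein, held 15.2 and 14.0 against 31.3 and 48.3 CPM (1.44, SE 0.27).

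Among the lower genes of these 24, Sox21, a SoxB2 transcription factor of early lineage choice, stood at 54.8 and 38.0 CPM in KO and at 13.7 and 8.03 CPM in siNeg (-2.09, SE 0.35). In siTfap4 it stood at 2.68 and 5.43 CPM. Ppp2cb, a catalytic subunit of protein phosphatase 2A, held 14.9 and 10.1 against 3.26 and 0.678 CPM (-2.63, SE 0.47). In both genes all siPOOL libraries lay under the untreated knockout libraries. The untreated WT libraries stood at 9.83 and 5.91 CPM for Sox21, also under KO, and at 27.1 and 20.6 CPM for Ppp2cb. Cops7a, a COP9 signalosome subunit, held 86.2 and 81.2 against 40.4 and 28.2 CPM (-1.29, SE 0.25), and Senp3, a nucleolar SUMO protease, 63.5 and 41.9 against 20.6 and 17.8 CPM (-1.45, SE 0.28). Crtc2, a CREB coactivator, held 9.10 and 3.38 against 1.03 and 0 CPM, and F3, tissue factor, 2.75 and 2.06 against 0.343 and 0.0968 CPM. Sox21, Ppp2cb and the pseudogene Gm9703 were each called in 8 of their alternative fits, which number 16 for Sox21 and Ppp2cb and 15 for Gm9703, and Dnmt3b and Fos in 6 of 16. Fos stood at 13.8 and 25.6 against 4.54 and 1.06 CPM (-2.77, SE 0.49).

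Dnmt3b, Sox21, Junb, Gapdh, Mki67, Rpl35, Cops7a, Rybp and Nek2 overlap a gene on the other strand, and Rybp, Kif20b and Bax overlap one on their own. The strand setting of the counting is not given, so these values are uncertain. Overlaps were looked up only for the genes of lowest p and the list genes called by DESeq2, and not for other DESeq2 calls such as Kit. The 42 gene lists held 741 different genes that were tested, and edgeR called 0 of them. At an unadjusted p under 0.05, 58 were higher (7.83%) and 65 lower (8.77%), beside 5.08% and 6.39% of all genes. DESeq2 called 12 of the 696 list genes with an adjusted p (1.72%, beside 1.03% of all genes): Dnmt3b, Rpl35, Gapdh, Mki67 and Peg10 rose, and Fos, Junb, Bst2, Bambi, Sox4, Egr1 and Bax fell. List medians were above 0 in 20 lists and below 0 in 22.

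**Figure D2:**
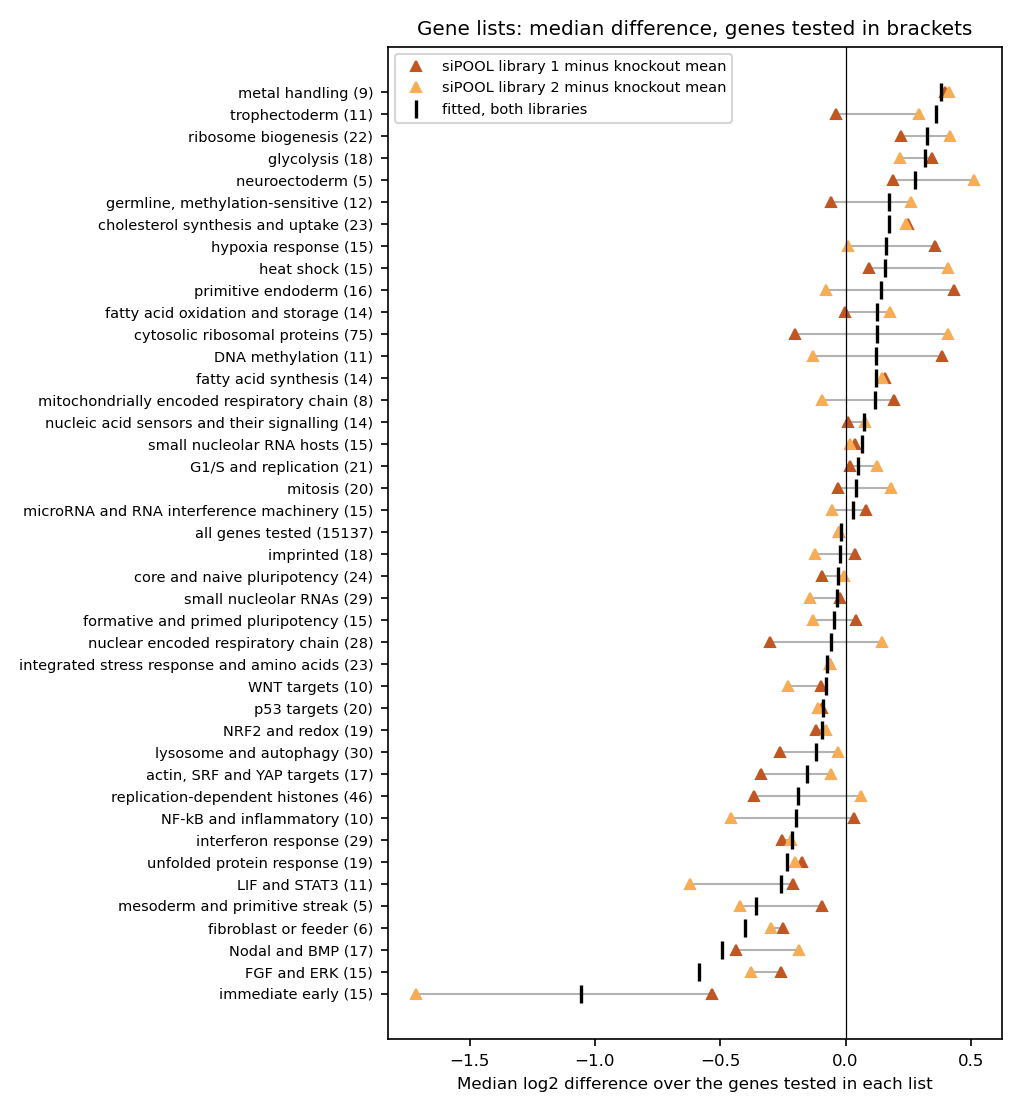
Median log2 difference over the tested genes of each list with at least 5 of them, for each control siPOOL library against the mean of the untreated knockout libraries (triangles, log2 CPM with a prior count) and for the fit (vertical ticks). Immediate early genes stand lowest, at -0.53 and -1.71 for the 2 libraries, while all genes tested stand at -0.02 and -0.03.

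Immediate early genes, the transcription factors and feedback genes that growth factors and serum induce within minutes, were the list furthest from 0 among those with at least 5 tested genes. All 15 were tested and all had a log2 fold change below 0, with a median of -1.06. At an unadjusted p under 0.05, 7 were lower and 0 higher. The groups did not overlap for 9, all lower in siNeg, where 24.4% of all genes were lower without overlap. Egr1, a zinc finger factor downstream of ERK, stood at 81.0 and 205 CPM in KO and at 15.7 and 12.8 CPM in siNeg. Its log2 fold change was -3.32 (SE 0.66, 95% interval -4.78 to -1.86, edgeR adjusted p = 0.0901, DESeq2 adjusted p = 0.0183). Junb, an AP-1 subunit, stood at 47.6 and 118 against 28.2 and 21.6 CPM (-1.73, SE 0.43, edgeR adjusted p = 0.141, DESeq2 adjusted p = 0.00849). For these genes and for Fos (DESeq2 adjusted p = 0.000159), both siNeg libraries were under both KO libraries, and KO replicate 2 was the highest of the 4.

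Ier2, a nuclear immediate early protein, held 74.0 and 90.9 against 56.6 and 59.9 CPM (-0.50, SE 0.23). Zfp36, which destabilises AU-rich mRNAs, held 8.33 and 17.2 against 7.45 and 3.39 CPM (-1.22, SE 0.42), and Fosb 1.45 and 2.39 against 0.771 and 0.581 CPM (-1.47, SE 0.62). Each of these lay lower in both siNeg libraries. Egr2, a relative of Egr1, held 0.382 and 2.56 CPM in KO and no count in siNeg. Its KO mean of 1.47 CPM was 10.8-fold over a floor of 3 counts over the siNeg group (0.136 CPM). This bound covers counting error only, and the mean rests mostly on KO replicate 2. The nuclear receptor gene Nr4a1 held 36.9 and 54.1 against 34.9 and 8.61 CPM, and Myc 10.1 and 16.3 against 11.6 and 1.94 CPM, so that only siNeg replicate 2 was far from KO in these. Atf3 and Btg2 overlapped between the groups (-0.33 and -0.06).

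The duplicates themselves differed in this list. KO replicate 2 lay above KO replicate 1 for 14 of the 15 genes, and WT replicate 1 above WT replicate 2 for 11. The titles of KO replicate 2 and WT replicate 1 end in the same letters, CC, and those of the other KO and WT libraries do not. What the endings stand for is not given in the labels. Egr1 in WT stood at 300 and 66.1 CPM. The median of the list was -0.54 when siNeg replicate 2 was left out and -0.58 when KO replicate 2 was. It was -1.30 when KO replicate 1 was left out and -1.90 when siNeg replicate 1 was. Setting Egr2 and Egr3 to their bounds could not move it from -1.06, since both genes lie under the median either way. The direction of the list median thus held in each leave-out, and its size moved by more than 1.5 times.

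**Figure D3:**
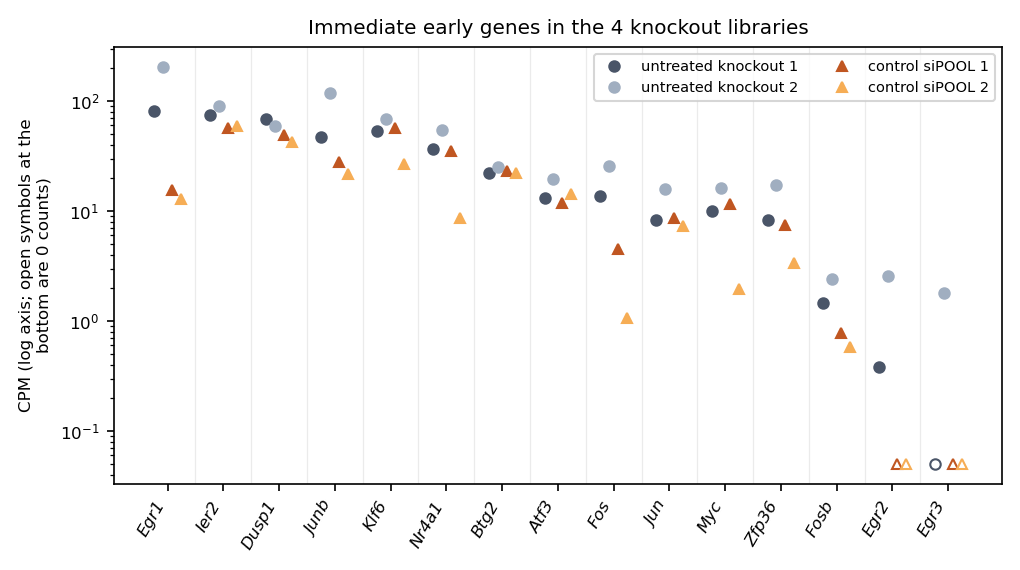
CPM of the 15 immediate early genes in the 4 knockout libraries (log axis, open symbols mark 0 counts). Circles are untreated and triangles control siPOOL libraries, and Egr1 stands at 81.0 and 205 CPM in the circles and at 15.7 and 12.8 CPM in the triangles.

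Promoter sequence was read for these genes because they are known to be driven by serum response factor, which binds the CArG box, and by CREB. RefSeq start sites gave a 300-base window (250 before to 50 after the start, GRCm38.p6) for 11 of the 15 genes. The CArG box was searched on both strands and lay in the windows of 2 genes, Egr2 and Zfp36, where 1.81% of 27025 genes hold it. The full CREB site TGACGTCA lay in those of Dusp1 and Btg2, where 2.03% of genes hold it. Egr2 had several windows, and that at chr10:67537316-67537615 held another CArG box, CCTTTTTTGG. The Egr2 window printed (10 of its bases are the box, in capitals) is at chr10:67537680-67537979 on the plus strand. The Zfp36 window is at chr7:28379179-28379478 on the minus strand.
Egr2: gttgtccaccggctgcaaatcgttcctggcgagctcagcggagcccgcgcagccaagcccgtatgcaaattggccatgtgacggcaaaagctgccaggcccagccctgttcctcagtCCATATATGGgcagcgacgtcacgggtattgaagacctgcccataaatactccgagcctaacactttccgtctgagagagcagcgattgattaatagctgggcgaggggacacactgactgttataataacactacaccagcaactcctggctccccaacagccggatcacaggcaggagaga
Zfp36: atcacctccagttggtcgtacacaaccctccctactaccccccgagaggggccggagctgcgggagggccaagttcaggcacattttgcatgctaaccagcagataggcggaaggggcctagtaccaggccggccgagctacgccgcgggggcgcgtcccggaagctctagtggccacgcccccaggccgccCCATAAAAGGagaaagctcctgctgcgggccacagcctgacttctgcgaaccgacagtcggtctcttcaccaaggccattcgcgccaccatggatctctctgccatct
Egr2 and Zfp36 were lower in both siNeg libraries, and so was Dusp1, at 68.4 and 59.1 against 49.4 and 42.2 CPM. Btg2 overlapped, at 22.2 and 25.2 against 22.9 and 22.4 CPM. For Fos and Junb neither motif is in the window read, and bases further upstream were not read. Egr1, Egr3, Ier2 and Myc had no window and were not searched.

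Of 15 tested FGF and ERK genes, Egr1 again among them, 12 had a log2 fold change below 0 (median -0.58), with 1 higher and 4 lower at an unadjusted p under 0.05. Dusp6, the ERK phosphatase, stood at 224 and 531 CPM in KO and at 186 and 135 CPM in siNeg (-1.24, SE 0.45), and the feedback inhibitor Spry2 at 97.7 and 152 against 78.2 and 54.5 CPM (-0.91, SE 0.29). Fgf4, the ligand that stem cells secrete, went the other way, at 148 and 175 against 219 and 278 CPM (0.62, SE 0.24), and the ETS factor Etv5 at 315 and 302 against 318 and 434 CPM (0.29, SE 0.25). None of these 4 genes overlapped between the groups, though Etv5 in KO replicate 1 was within a few CPM of siNeg replicate 1. Leaving out KO replicate 2 gave a list median of -0.35 and leaving out siNeg replicate 2 one of -0.31.

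Of 17 tested actin, serum response factor and YAP targets, 15 had a log2 fold change below 0 (median -0.15), with 5 lower and 0 higher at an unadjusted p under 0.05. Srf, the factor itself, held 10.7 and 15.1 CPM in KO and 4.28 and 0.484 CPM in siNeg (-2.38, SE 0.64). Ccn2, a matricellular YAP target, held 50.8 and 204 against 23.3 and 3.97 CPM (-3.21, SE 1.12), and its relative Ccn1 1.91 and 24.7 against 1.20 and 0.194 CPM (-4.17, SE 1.59). In each of the 3, KO replicate 2 was highest and siNeg replicate 2 lowest. The abundant members Actb and Tagln2 stood at -0.15 (SE 0.27) and -0.15 (SE 0.25) and overlapped. Its list median ran from -0.06 with siNeg replicate 1 left out to -0.37 with siNeg replicate 2 left out, and was -0.34 with KO replicate 1 left out.

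Nodal and BMP genes were below 0 in 14 of 17 (median -0.49), with 4 lower and 0 higher at an unadjusted p under 0.05. Bambi, a decoy receptor of the TGF-beta family, held 14.8 and 21.1 CPM in KO and 7.80 and 3.48 CPM in siNeg (-1.65, SE 0.35, edgeR adjusted p = 0.0661, DESeq2 adjusted p = 0.0143), and 0.127 and 0.236 CPM in siTfap4. Fst, the activin antagonist follistatin, held 5.20 and 9.57 against 3.77 and 0.387 CPM (-1.77, SE 0.58). Id1, a BMP target, stood at 107 and 334 against 133 and 106 CPM, so the groups overlapped, and its log2 fold change of -0.88 was 0.17 without KO replicate 2. The ligand genes Nodal (0.04, SE 0.29) and Bmp4 (0.06, SE 0.23) and the co-receptor gene Tdgf1 (-0.02, SE 0.24) overlapped. The list median was -0.08 without KO replicate 2.

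Of 11 LIF and STAT3 genes, 7 were below 0 (median -0.26), with 3 lower and 0 higher at an unadjusted p under 0.05. Besides Junb, already described, these were Klf4 and the kinase gene Pim1, which stood at 178 and 157 against 114 and 87.8 CPM (-0.73, SE 0.26). The groups did not overlap for any of these 3. Stat3 itself stood at 160 and 203 against 178 and 196 CPM (0.04, SE 0.22), and Tfcp2l1 at 348 and 415 against 416 and 412 CPM (0.12, SE 0.24). Leaving out KO replicate 2 gave a list median of -0.08, and leaving out KO replicate 1 or siNeg replicate 1 gave -0.47 or -0.63.

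Core and naive pluripotency genes were spread around 0. All 24 were tested, 11 above and 13 below 0, with a median of -0.03. At an unadjusted p under 0.05 there were 2 higher and 4 lower. Without overlap between the groups, 5 were higher and 10 lower in siNeg, beside 20.5% and 24.4% of all genes. The 2 most abundant, Klf5 and Sox2, stood at 1854 and 2388 against 1621 and 1471 CPM (-0.46, SE 0.24) and at 1031 and 840 against 888 and 763 CPM (-0.18, SE 0.23). Nanog stood at 526 and 533 against 412 and 316 CPM (-0.54, 95% interval -1.17 to 0.08), and Esrrb at 362 and 379 against 341 and 451 CPM (0.09, 95% interval -0.38 to 0.57). Nanog was lower in both siNeg libraries and Esrrb overlapped, and such intervals do not show that the groups were equal. Pou5f1 was counted at 30.7 and 35.5 against 25.2 and 27.7 CPM (-0.32, 95% interval -0.85 to 0.20).

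The pluripotency genes furthest from 0 were the LIF-dependent factor Klf4, at 119 and 162 against 89.4 and 63.6 CPM (-0.87, SE 0.26), the AKT coactivator gene Tcl1, at 88.7 and 82.0 against 46.5 and 50.1 CPM (-0.82, SE 0.23), and the orphan receptor gene Nr0b1, at 218 and 342 against 156 and 41.5 CPM (-1.5, SE 0.57). Each was lower in both siNeg libraries, with Nr0b1 resting mostly on siNeg replicate 2. L1td1, an RNA-binding protein gene, was higher, at 552 and 662 against 860 and 891 CPM (0.53, SE 0.24). Tbx3 was lower, at 176 and 198 against 143 and 118 CPM (-0.52, SE 0.23). Their adjusted p-values ran from 0.158 for Tcl1 upwards.

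**Figure D4:**
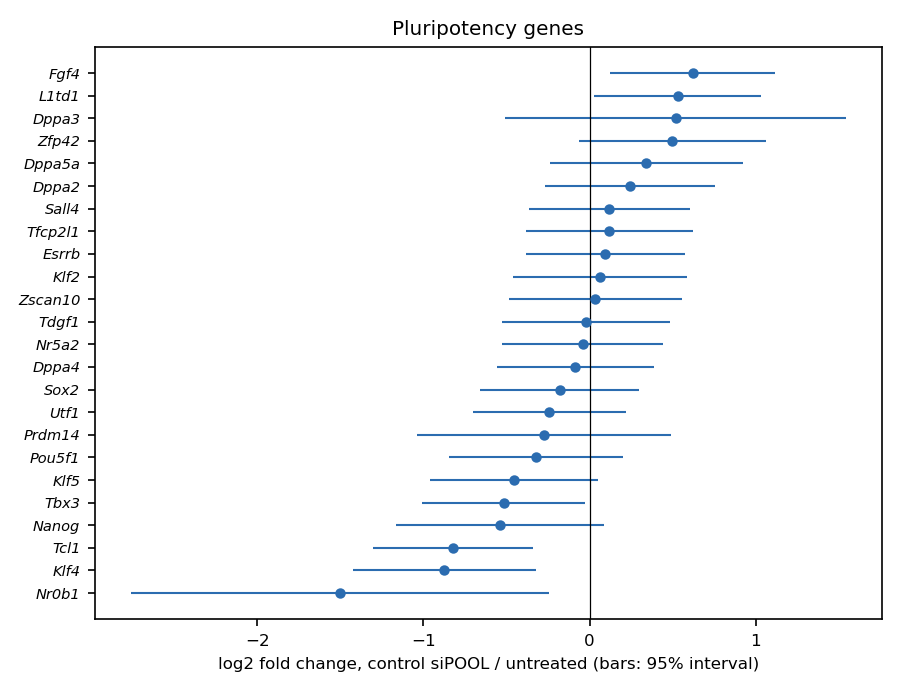
Log2 fold change of control siPOOL over untreated knockout cells with its 95% interval for the 24 pluripotency genes. Klf4 at -0.87 and Tcl1 at -0.82 have intervals under 0 and Fgf4 at 0.62 has one over 0, while the intervals of Sox2, Nanog and Pou5f1 span 0.

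Of 15 tested formative and primed genes, 7 were above and 8 below 0 (median -0.04, and 0.09 without KO replicate 1), with 2 higher and 3 lower at an unadjusted p under 0.05. Besides Dnmt3b, Fgf15 was higher (3.36 and 1.07 against 6.77 and 5.32 CPM). Sox4 held 18.6 and 26.9 against 11.3 and 7.45 CPM (-1.27, SE 0.30, edgeR adjusted p = 0.099, DESeq2 adjusted p = 0.0172). The abundant Etv5 stood at 0.29 (SE 0.25). Kit, the stem cell factor receptor, belongs to no list and was named for its rank. It stood at 144 and 112 against 58.1 and 39.1 CPM (-1.40, SE 0.29, adjusted p = 0.066), lower in both siNeg libraries.

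Interferon response genes were not higher as a group. Of 44 genes, 29 were tested, 9 with a log2 fold change above 0 and 20 below (median -0.21). At an unadjusted p under 0.05 there were 0 higher and 4 lower. Without overlap between the groups, 3 were higher and 11 lower in siNeg, beside 20.5% and 24.4% of all genes. Bst2, the virion tether tetherin, held 10.4 and 16 CPM in KO and 4.80 and 4.36 CPM in siNeg (-1.52, SE 0.34, edgeR adjusted p = 0.0807, DESeq2 adjusted p = 0.0115). B2m, the light chain of MHC class I, held 9.48 and 13.9 against 5.74 and 4.94 CPM (-1.13, SE 0.33). Both genes were lower in both siNeg libraries. Ifit1 and Ifi27 were at 0.994 and 1.81 against 0.514 and 0.0968 CPM and at 1.53 and 1.73 against 0.428 and 0.678 CPM. The heavy chain genes H2-K1 (30.1 and 25 against 21.2 and 19.2 CPM) and H2-D1 (27.1 and 27.5 against 18.3 and 19.5 CPM) did not overlap either.

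The most abundant members, the antiviral membrane proteins Ifitm3 and Ifitm1, stood at 700 and 741 against 557 and 711 CPM (-0.18, SE 0.32) and at 431 and 341 against 307 and 467 CPM (0.00, SE 0.27). Irf9, which carries the interferon signal, overlapped between the groups (27.3 and 24.6 against 24.9 and 28.6 CPM). Oas1a, which makes the RNase L activator, held 0.765 and 0.577 against 1.20 and 2.23 CPM and was above KO in both siNeg libraries. Among the 15 genes under the filter on low counts, Ifnb1, Mx1, Mx2, Usp18, Ifi44 and Ifit3 had 0 counts in all 4 libraries. Isg15 had 3 and 26 counts in KO and 7 and 6 in siNeg, and Ifit2 had 7 and 18 against 5 and 4. Of the 29 tested genes, edgeR called 0 and DESeq2 called Bst2.

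Of 14 tested genes for nucleic acid sensors and their signalling, 8 were above and 6 below 0 (median 0.08), and 0 had an unadjusted p under 0.05. Ddx58, which encodes RIG-I, held 17.5 and 28.3 CPM in KO and 41.6 and 33.0 CPM in siNeg (0.71, 95% interval -0.02 to 1.43). Eif2ak2, which encodes PKR, held 17.9 and 26 against 17.5 and 17.3 CPM (-0.33, SE 0.28). Mavs, the adaptor of RIG-I, stood at 64.2 and 54.3 against 64.9 and 62.7 CPM (0.11, SE 0.24), and Adar, which edits double-stranded RNA, at 36.6 and 30.3 against 38.8 and 45.9 CPM (0.34, SE 0.25). The list median was -0.11 without KO replicate 1. Ddx58 was higher in both siNeg libraries and Eif2ak2 lower in both, and neither had an unadjusted p under 0.05.

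The 15 tested genes of the microRNA and RNA interference machinery had a median of 0.03 (0.18 without KO replicate 2 and -0.05 without siNeg replicate 1), with 10 above and 5 below 0, and 0 had an unadjusted p under 0.05. Ago2, the slicing Argonaute, stood at 210 and 205 CPM in KO and at 343 and 253 CPM in siNeg (0.52, SE 0.26), and Tnrc6a, which recruits deadenylases, at 304 and 341 against 322 and 268 CPM (-0.13, SE 0.22). Dicer1 stood at 119 and 109 against 145 and 129 CPM (0.27, SE 0.23). Ago2 and Dicer1 did not overlap between groups, and Tnrc6a did. NF-kB and inflammatory genes were mixed (10 tested, median -0.20, 1 higher and 2 lower at an unadjusted p under 0.05). The inhibitor gene Nfkbia stood at 465 and 343 against 242 and 255 CPM (-0.70, SE 0.28) and the stress gene Ier3 at 25.1 and 12.5 against 56.8 and 36.1 CPM (1.30, SE 0.50). The other abundant member, Sod2, stood at -0.11 (SE 0.36). The NF-kB list median was -0.02 without siNeg replicate 2 and -0.46 without siNeg replicate 1.

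Stress programmes showed no common direction. The integrated stress response and amino acid list had a median of -0.07 over 23 genes (2 higher and 1 lower at an unadjusted p under 0.05). Atf4, its central factor, stood at 572 and 758 against 506 and 566 CPM (-0.31, SE 0.28), and the abundant Asns and Psat1 at -0.19 (SE 0.23) and -0.07 (SE 0.24). Nupr1 stood at 106 and 91.3 against 159 and 165 CPM (0.72, SE 0.26) and Atf5 at 107 and 142 against 75.4 and 80.2 CPM (-0.68, SE 0.25), so members of the same list lay on opposite sides. The unfolded protein response list had a median of -0.23 over 19 genes (0 higher and 2 lower). Without overlap, 2 of them were higher and 9 lower in siNeg, beside 20.5% and 24.4% of all genes. The abundant Hspa5 and Calr stood at 0.17 (SE 0.23) and 0.15 (SE 0.22). Xbp1, whose spliced form drives this response, stood at 116 and 99.6 against 76.3 and 63.1 CPM (-0.63, SE 0.28).

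Heat shock genes had a median of 0.16 over 15 genes, 11 of them above 0, with 3 higher and 0 lower at an unadjusted p under 0.05. Hsph1, a nucleotide exchange factor, stood at 139 and 122 against 178 and 231 CPM (0.65, SE 0.24) and Hspa4 at 621 and 599 against 804 and 870 CPM (0.46, SE 0.22), both higher in both siNeg libraries. The stress-inducible Hspa1a and Hspa1b overlapped (2.45 and 5.28 against 3.51 and 1.94 CPM, and 7.49 and 6.85 against 10.5 and 5.32 CPM). Hsp90ab1 and Hsp90aa1, the most abundant members, stood at -0.04 (SE 0.25) and 0.30 (SE 0.24). Of 9 metal handling genes, 8 were above 0 (median 0.38). Mt1 and Mt2, the metallothioneins, stood at 820 and 1226 against 1673 and 1962 CPM (0.83, SE 0.26) and at 1117 and 1773 against 1950.4 and 1914 CPM (0.42, SE 0.27). The metal list median was 0.22 without siNeg replicate 2, and that of heat shock genes was 0.42 without siNeg replicate 1 and 0.10 without siNeg replicate 2.

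Of 20 p53 targets, 14 were below 0 (median -0.09), with 0 higher and 3 lower at an unadjusted p under 0.05. Bax, a pro-apoptotic gene, held 32.5 and 53.6 CPM in KO and 15.9 and 22.7 CPM in siNeg (-1.16, SE 0.29, edgeR adjusted p = 0.116, DESeq2 adjusted p = 0.0351). Pmaip1, which encodes NOXA, held 6.27 and 8.17 against 3.0 and 3.19 CPM (-1.22, SE 0.39), and Gdf15 92.8 and 91.5 against 61.5 and 51.0 CPM (-0.71, SE 0.26). These 3 did not overlap between groups. Mdm2 and Ccng1, the most abundant targets, stood at 0.12 (SE 0.28) and -0.07 (SE 0.25). Of 19 NRF2 and redox genes (median -0.09), 3 were higher and 1 lower at an unadjusted p under 0.05. Among them Gpx2, a glutathione peroxidase, stood at 26.1 and 33.7 against 48.8 and 70.8 CPM (1.00, SE 0.27) and Hmox1, heme oxygenase 1, at 36.5 and 53.3 against 31.1 and 19 CPM (-0.84, SE 0.30).

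Glycolysis genes lay above 0 in 16 of 18 (median 0.32), with 3 higher and 0 lower at an unadjusted p under 0.05. Without overlap, 10 were higher and 1 lower in siNeg, beside 20.5% and 24.4% of all genes. Gapdh stood at 63.7 and 53.2 CPM in KO and at 139 and 122 CPM in siNeg (1.16, SE 0.23, edgeR adjusted p = 0.066, DESeq2 adjusted p = 0.00169), and at 18.2 and 16.9 CPM in siTfap4. The 2 siPOOL groups thus lay on opposite sides of KO for Gapdh. Tpi1 stood at 196 and 135 against 234 and 251 CPM (0.55, SE 0.24), and the abundant Aldoa and Ldha at 0.32 (SE 0.24) and 0.32 (SE 0.24). Eno1 stood at 31.3 and 33.3 against 75.5 and 46.0 CPM, but 98.2% of the 31-base words in its last 200 bases also occur in other genes. The list median was 0.19 without KO replicate 2.

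Hypoxia response genes had a median of 0.16 over 15 genes, with 2 higher and 0 lower at an unadjusted p under 0.05. Ndrg1 held 11.2 and 13.7 against 37.7 and 18.1 CPM (1.17, SE 0.33) and Adm, adrenomedullin, 0.688 and 0.0825 against 2.31 and 2.23 CPM (2.49, SE 0.72). The abundant Ddit4 and Pdk1 stood at 0.60 (SE 0.40) and 0.16 (SE 0.25). Leaving out siNeg replicate 1 gave a hypoxia list median of 0.0068, and leaving out siNeg replicate 2 or KO replicate 1 gave 0.41. Cholesterol synthesis and uptake genes lay above 0 in 17 of 23 (median 0.17), with 3 higher and 0 lower. Hmgcs1, an enzyme of the pathway, stood at 241 and 168 against 345 and 362 CPM (0.79, SE 0.25), without overlap. The sterol sensor gene Insig1 stood at 16.3 and 19.7 against 14.0 and 9.10 CPM (-0.64, 95% interval -1.29 to 0.02), lower in both siNeg libraries.

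Ribosome biogenesis genes lay above 0 in 18 of 22 (median 0.33), with 6 higher and 0 lower at an unadjusted p under 0.05. The siNeg libraries were above KO without overlap for 16 and below for 2, beside 20.5% and 24.4% of all genes. Polr1a, the largest subunit of RNA polymerase I, stood at 73.2 and 74.0 CPM in KO and at 112 and 113 CPM in siNeg (0.61, SE 0.23). Fbl, the methyltransferase fibrillarin, stood at 41.2 and 36.2 against 52.0 and 91.9 CPM (0.89, SE 0.34). The nucleolar proteins Ncl and Npm1, the most abundant, stood at 0.29 (SE 0.23) and 0.39 (SE 0.23), and the pseudouridine synthase gene Dkc1 went the other way (762 and 932 against 703 and 666 CPM). The list median lay between 0.22 and 0.42 in the leave-outs, the lowest without siNeg replicate 2.

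The cytosolic ribosomal protein genes split by library rather than by group. Over 75 genes the median was -0.20 for siNeg replicate 1 and 0.41 for siNeg replicate 2 against the KO mean, and 69 of the 75 were higher in replicate 2 than in replicate 1. The share of counts on ribosomal protein genes was 10.2% and 9.61% in KO and 8.0% and 12% in siNeg. Rps12 and Rps26, the most abundant, overlapped (0.12, SE 0.33, and 0.09, SE 0.26). At an unadjusted p under 0.05, 10 were higher and 1 lower, and in 6 of the 10 more than 50% of the 31-base words in the last 200 bases occur in other genes. Rpl35 stood at 59.4 and 58.1 against 151 and 120 CPM (1.21, SE 0.23, edgeR adjusted p = 0.0543, DESeq2 adjusted p = 0.000499), while Gm2000, which carries nearly its whole 3′ end, stood at 28 and 31.2 against 9.77 and 15.1 CPM. Their sum was 87.4 and 89.2 CPM in KO and 161 and 135 CPM in siNeg, higher in both siNeg libraries.

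Cell cycle genes were close to 0 as lists, with a median of 0.05 over 21 G1/S and replication genes (1 higher and 1 lower) and of 0.04 over 20 mitosis genes (3 higher and 1 lower at an unadjusted p under 0.05). Mki67, the proliferation antigen, stood at 63.2 and 69.9 CPM in KO and at 171 and 117 CPM in siNeg (1.11, SE 0.26, edgeR adjusted p = 0.0908, DESeq2 adjusted p = 0.0115). Ccnd2, cyclin D2, stood at 400 and 478 against 194 and 318 CPM (-0.78, SE 0.26) and Cdkn1c, the inhibitor p57, at 18.1 and 15.7 against 33.1 and 40.3 CPM (1.12, SE 0.31). None of these 3 overlapped between groups. The abundant Mcm3 and Mcm7 stood at -0.14 (SE 0.23) and 0.05 (SE 0.23), and Top2a at 0.31 (SE 0.24). Nek2, a centrosomal kinase outside the lists and named for its rank, stood at 87.0 and 71.8 against 35.5 and 13.5 CPM (-1.69, SE 0.34).

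Among 11 DNA methylation genes (median 0.12), 3 were higher and 1 lower at an unadjusted p under 0.05. Besides Dnmt3b, Tet1, which oxidises methylcytosine, stood at 171 and 192 CPM in KO and at 435 and 234 CPM in siNeg (0.88, SE 0.29), and Dnmt3l, the cofactor of de novo methylation, at 63.7 and 63.3 against 88.2 and 93.3 CPM (0.51, SE 0.24). Zfp57, which protects imprints, held 24.3 and 54.6 against 26 and 14.6 CPM and overlapped. The list median was -0.12 without siNeg replicate 1, the library in which Dnmt3b and Tet1 were highest. Germline genes that DNA methylation silences had a median of 0.17 over 12 genes and 0 with an unadjusted p under 0.05, with Rhox5 at 0.51 (SE 0.26) and Rhox6 at 0.53 (SE 0.40). That median was -0.12 without siNeg replicate 2, and 0.040 or 0.0042 with the first or second KO library left out.

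Of 18 imprinted genes (median -0.02, and 0.18 without KO replicate 1), 3 were higher and 2 lower at an unadjusted p under 0.05. Peg10 stood at 58.6 and 58.9 CPM in KO and at 144 and 104 CPM in siNeg (1.08, SE 0.27, edgeR adjusted p = 0.114, DESeq2 adjusted p = 0.0224), and Igf2r at 53.1 and 42.0 against 29.5 and 14.2 CPM (-1.12, SE 0.30). The paternally expressed Mest separated the KO duplicates rather than the groups. It held 55.1 CPM in KO replicate 1 and 0.165 CPM in KO replicate 2, and 0.514 and 0.290 CPM in siNeg, 0.255 and 0.118 CPM in siTfap4 and 51.9 and 29.6 CPM in WT. KO replicate 2 and the 4 siPOOL libraries were thus low and KO replicate 1 was at the wild-type level. Of all tested genes, only Mest stood at 10 CPM or more in KO replicate 1 and at least 10-fold over each other library of knockout cells. Only Ccn1 did so in KO replicate 2. Genes under the filter on low counts were not searched. Among those, Nlrp12 had 161 counts in KO replicate 1 and 0 in KO replicate 2, siNeg and siTfap4. Meg3 and Grb10, the most abundant imprinted genes, stood at 0.16 (SE 0.41) and -0.39 (SE 0.27).

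Lineage markers gave few genes beyond the spread of duplicates. Of 16 primitive endoderm genes (median 0.14, but -0.09 without siNeg replicate 1), Lama1, a basement membrane laminin, was higher at 11.6 and 9.49 against 24.0 and 20.5 CPM (1.08, SE 0.31), and the endoderm factor gene Gata4 lower at 4.59 and 2.72 against 1.46 and 1.94 CPM (-1.12, SE 0.46). Of 5 neuroectoderm genes (median 0.28, and 0.11 without siNeg replicate 2 or KO replicate 2), the neural factor gene Sox1 was lower at 6.19 and 10.2 against 3.86 and 3.29 CPM (-1.19, SE 0.40). Of 11 trophectoderm genes (median 0.36, but -0.02 without KO replicate 1 and -0.04 without siNeg replicate 2), the keratin gene Krt8 was higher at 3.21 and 4.54 against 7.11 and 8.13 CPM (0.98, SE 0.36), while the abundant Tfap2c stood at -0.44 (SE 0.30). These 4 genes did not overlap between groups and had unadjusted p-values under 0.05. Of 5 mesoderm genes none had, and the most abundant, Eomes, stood at 0.48 (SE 0.51). The 2 tested genes of the 2-cell-like state, Zscan4c and Zscan4d, held 1.76 and 4.37 against 0.343 and 1.16 CPM and 1.68 and 4.45 against 0.685 and 1.06 CPM, but share 67.6% and 55.3% of the words at their 3′ ends with other genes.

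RNA classes differed in balance. Of 626 processed pseudogenes, 54 were higher (8.63%) and 134 lower (21.4%) at an unadjusted p under 0.05, with a median of -0.29. The 626 include pseudogenes annotated as transcribed, which were left out of a split by shared 3′ ends. In that split the median was -0.31 for the 344 whose 3′ ends are mostly shared with other genes and -0.28 for the 218 others. Long non-coding or unclassified genes (1455) had a median of 0.21, with 9.83% higher and 2.47% lower. Against the KO mean, the median of this class was 0.37 for siNeg replicate 1 but 0.026 for siNeg replicate 2. For processed pseudogenes these medians were -0.39 and -0.17. Protein-coding genes (12830) had a median of -0.03, with 4.33% higher and 6.06% lower. Of the 626 processed pseudogenes, DESeq2 called 20 lower and 6 higher, beside 0.561% and 0.471% of all genes with an adjusted p. Among those at the adjusted p of 0.0543, Rpl31-ps8 held 53.6 and 65.7 CPM in KO and 19 and 23.4 CPM in siNeg (-1.49, SE 0.26), and its last 200 bases are found whole in Rpl31.

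Both mitochondrial ribosomal RNAs stood higher in siNeg, and 8 of 13 mitochondrial tRNAs were lower at an unadjusted p under 0.05. None of the 15 was called by edgeR, and DESeq2 called 2 higher and 3 lower, beside 0.471% and 0.561% of all genes with an adjusted p. The 16S rRNA mt-Rnr2 stood at 4062 and 5258 CPM in KO and at 12852 and 9987 CPM in siNeg (1.29, SE 0.27, adjusted p = 0.066), and the 12S rRNA mt-Rnr1 at 1275 and 1567 against 4607 and 2893 CPM (1.40, SE 0.30). The methionine tRNA mt-Tm held 17.5 and 35.1 against 7.20 and 8.42 CPM (-1.75, SE 0.36). The tryptophan tRNA mt-Tw was higher in both siNeg libraries (0.59, SE 0.51), and mt-Tf, mt-Ts2 and mt-Tt overlapped. The 8 tested mitochondrial mRNAs had a median of 0.12 (-0.09 without siNeg replicate 1), and none had an unadjusted p under 0.05. The share of counts on the 2 rRNAs was 0.548% and 0.703% in KO, 1.79% and 1.23% in siNeg, 1.91% and 2.22% in siTfap4 and 1.29% and 0.871% in WT. The siNeg, siTfap4 and WT libraries were thus all above both KO libraries. The part of library preparation in these values was not tested.

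**Figure D5:**
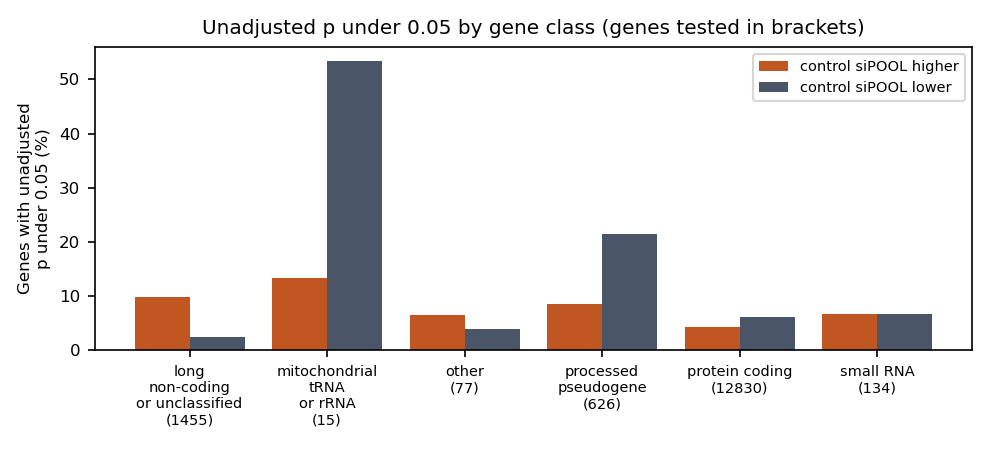
Share of tested genes with an unadjusted p under 0.05 that were higher (orange) or lower (dark grey) with the control siPOOL, by gene class, with the number tested in brackets. Processed pseudogenes reach 21.4% lower against 8.63% higher, and long non-coding genes 9.83% higher against 2.47% lower.

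The siNeg duplicates also differed in base composition. With genes binned by the GC percent of their last 100 bases, the median difference from the KO mean ran from -0.25 in the lowest bin to 0.14 in the highest for siNeg replicate 2, and stayed between -0.06 and -0.00 for siNeg replicate 1. Its part in the gene values was not tested beyond the fit with a GC offset, which called 5 genes.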

How the data were processed

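Counts per gene were used as the authors deposited them. Per the submitters' processing notes, QuantSeq 3′ mRNA reads were trimmed with Trim Galore and the genome was GRCm38. For the aligner, the counter, its strand setting and the annotation, a name or version is not given in the sources used here. Of 55421 identifiers, 55240 matched GENCODE M21. Genes were filtered with filterByExpr and scaled with TMM factors. edgeR 4.0.16 (R 4.3.3, limma 3.58.1) fitted 4 group means to all 8 libraries by a robust quasi-likelihood model with 4 residual degrees of freedom, so the spread comes from all groups, with Benjamini-Hochberg adjustment over all genes tested. DESeq2 1.42.0 and limma-voom were alternatives. CPM and log2 values were computed here from the deposited counts (prior count 2 for log2 CPM of single libraries). The fit was tested on simulated data. P-values measure the spread between duplicates. Intervals are 95%. Genes whose last 200 bases share over 50% of 31-base words with other genes are uncertain.

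The comparison and the 42 lists were chosen with earlier results of these data known. The rule named Tfap4, the deleted cluster, called genes, and up to 3 called members or the 2 most abundant of each list. With 1 gene called, other genes named were chosen after their values were seen, by rank of p, by an unadjusted p under 0.05 within a list, or for their role in it. Some members of the lists are not reported here by name.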

Additional observations from a re-analysis of the deposited data

How the results depend on the processing

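Gm16433 was called in every fit that tested it, while the number of genes called depended on the tool, the scaling and the filter (total, then higher and lower in siNeg). It was 138 (63 and 75) with DESeq2 and 120 (55 and 65) of 27644 genes (0.434%) in edgeR with no filter on low counts, of which 106 are among the DESeq2 calls. It was 11 (4 and 7) with RLE factors, 12 (5 and 7) with upper-quartile factors, 5 (3 and 2) with a GC offset, 2 (1 and 1) on the 4 libraries alone and 99 (41 and 58) at an adjusted p threshold of 0.1. limma-voom, the legacy fit, a filter of at least 10 counts in 4 libraries, and a 2-fold minimum each left 1 higher and 0 lower, beside 769 higher and 968 lower at an unadjusted p under 0.05 in the edgeR fit. Adjusting over 12461 protein-coding genes with unshared 3′ ends alone, chosen after seeing the data, left 0 calls in edgeR (0 and 0), with 1272 genes at an unadjusted p under 0.05. Leaving out each library in turn gave 1 to 76 genes, with 1 to 10 higher and 0 to 66 lower, the 76 without siNeg replicate 1. No scaling moved the median of all genes by over 0.1.

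With the replicate number as a block (replicate block), 18 genes were called (4 and 14), and 19 (5 and 14) when the GC offset was added. Deviations of KO and siNeg libraries with the same number correlated at r = 0.01 across genes, so the numbers gave no sign of pairing these groups. The largest value was r = 0.13, for siTfap4 with siNeg, which share a library set. All other pairs of groups had negative values. Whether the numbers pair the siPOOL libraries was not tested further.

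In 30 named genes, none of them called in the edgeR fit, the log2 fold change took the other sign in some fit. Leaving out each library in turn gave these lowest and highest values: Acadm -0.66 to 0.14, Atp5b -0.090 to 0.14, Bmp4 -0.15 to 0.25, Ccng1 -0.16 to 0.030, Hsp90ab1 -0.16 to 0.090, Id1 -1.48 to 0.17, Ifitm1 -0.33 to 0.28, Lamp1 -0.11 to 0.44, Mavs -0.0094 to 0.24 and Mcm7 -0.025 to 0.13. For the next genes by name they were Mdm2 -0.062 to 0.28, Meg3 -0.30 to 0.52, Mest -7.03 to 1.25, mt-Nd4 -0.074 to 0.15, Pax6 -0.39 to 0.46, Prdx1 -0.30 to 0.51, Psat1 -0.38 to 0.19, Rhox6 -0.065 to 1.25, Rps12 -0.44 to 0.54 and Rps26 -0.21 to 0.35, and for the last Scd2 -0.018 to 0.23, Snhg3 -0.32 to 0.17, Snora73b -0.97 to 0.18, Sod2 -0.22 to 0.015, Sparc -0.12 to 0.48, Tagln2 -0.37 to 0.053, Tdgf1 -0.14 to 0.11, Tubb3 -0.13 to 0.86 and Vim -0.15 to 0.23. With the GC offset the values of opposite sign were Cox7c 0.0057, Hsp90ab1 0.049, Ifitm1 -0.074, Tdgf1 0.028 and Vim -0.019, and with the block as well Hsp90ab1 0.054, Ifitm1 -0.047, Tdgf1 0.039 and Vim -0.024. On the 4 libraries alone they were Hsp90ab1 0.00014 and Tdgf1 0.012, with limma-voom Ifitm1 -0.019 and with upper-quartile factors Tdgf1 0.0051. The cause was not tested for any of these. The 2 libraries a group limit the precision of every value.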

Other observations

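Fatty acid and lysosome genes are not described above. Of 30 lysosome and autophagy genes, 21 had a log2 fold change below 0 (median -0.12, and -0.03 without siNeg replicate 1 or -0.28 without KO replicate 1), with 1 higher and 5 lower at an unadjusted p under 0.05, none called by edgeR. Lamp2, a lysosomal membrane protein gene, stood at 176 and 237 CPM in KO and at 138 and 115 CPM in siNeg (-0.71, SE 0.26), and Gabarapl1, an autophagosome protein gene, at 32.6 and 35.1 against 12.2 and 17.7 CPM (-1.18, SE 0.32). Psap, the saposin precursor gene, went the other way, at 26.6 and 25 against 43.9 and 68.4 CPM (1.12, SE 0.33). The abundant Atp6v1a and Lamp1 stood at -0.30 (SE 0.22) and 0.18 (SE 0.26). Of 14 fatty acid synthesis genes (median 0.12), 0 had an unadjusted p under 0.05, and Scd2 and Acly stood at 0.11 (SE 0.27) and 0.26 (SE 0.22).

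Snhg6, a host gene of small nucleolar RNAs, stood at 140 and 121 CPM in KO and at 62.5 and 13.8 CPM in siNeg (-1.77, SE 0.48), and Snhg12 at 94.4 and 87.3 against 125 and 141 CPM (0.55, SE 0.22), so members of the list of 15 hosts (median 0.07) lay on both sides. Among 46 replication-dependent histone genes (median -0.19), 4 were higher and 2 lower at an unadjusted p under 0.05, and the list median was 0.02 without siNeg replicate 1 and -0.40 without siNeg replicate 2. For Nlrp12, a minus-strand gene over the deleted cluster, 161 counts fell in KO replicate 1, while the other 3 libraries had 0.

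The other lists held no called gene either. WNT targets had a median of -0.08 (-0.24 without siNeg replicate 1) over 10 genes (0 higher and 1 lower at an unadjusted p under 0.05), with cyclin D1, Ccnd1, at 0.32 (SE 0.29) and the WNT deacylase gene Notum at -0.78 (SE 0.62). Fatty acid oxidation and storage genes had a median of 0.12 over 14 genes (1 higher and 3 lower), which was -0.03 without KO replicate 2, with Hadha at 0.36 (SE 0.25) and Acadm at -0.21 (SE 0.28). Nuclear genes of the respiratory chain had a median of -0.06 over 28 (0 higher and 1 lower), at -0.30 for siNeg replicate 1 and 0.15 for siNeg replicate 2, with Atp5b at 0.03 (SE 0.26). Small nucleolar RNAs had a median of -0.03 (0.14 without KO replicate 1) over 29 (2 higher and 1 lower), and fibroblast or feeder genes one of -0.40 over 6 (1 higher and 0 lower, and -0.10 without KO replicate 2), with fibronectin, Fn1, at -0.61 (SE 0.30) and vimentin, Vim, at 0.03 (SE 0.23).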
